A study of Saccharomyces cerevisiae with 18 samples.

Results

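The RNA of 10 genes that build and monitor the cell wall of *Saccharomyces cerevisiae* was followed across colonies and liquid cultures of 4 strains. The genes are *FKS1*, *GSC2*, *CHS1*, *CHS2*, *CHS3*, *GAS1*, *BGL2*, *CRH1*, *MTL1* and *MID2*, chosen by name as glucan and chitin synthases, glucan remodelling enzymes and wall stress sensors, out of 5425 *S. cerevisiae* genes with a named probe set on the array. Each of the 10 is measured by 1 probe set, and all lay above the background on all 18 arrays. The study asked how loss of *FLO11*, an adhesin gene that wrinkled colonies need, changes gene expression on solid and in liquid medium. All strains are Sigma1278b, a background known for filamentous growth and for adhesion to agar. By their deposited labels KV2668 and KV68 are wild type and KV473 and KV63 carry a *FLO11* deletion. All 4 strains were grown as colonies, and KV2668 and KV473 also in liquid medium, with 3 arrays per strain and medium. Colonies grew for 5 days at 30°C on a yeast extract, peptone and sucrose medium. The liquid arrays carry the same growth protocol, which describes colonies, so the growth time in liquid medium is not known. Medium and growth time therefore cannot be told apart where colonies are compared with liquid cultures. No label says whether replicates came from separate cultures, so the p-values measure the spread between these arrays.

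The yeast wall is a mesh of glucan chains with a smaller amount of chitin, covered by mannoproteins. Fks1 and Gsc2 (also called Fks2) are alternative catalytic subunits of the enzyme that spins the main glucan from inside the plasma membrane, and Gas1, Bgl2 and Crh1 cut and rejoin the chains once they are outside. Chs1, Chs2 and Chs3 are the chitin synthases, which act in repair after cell separation, in the septum and in the bud ring and lateral wall. Mid2 and Mtl1 are related membrane proteins that sense wall stress and signal through Rho1 and the protein kinase C cascade to the transcription factor Rlm1, a route known as the cell wall integrity pathway.

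The libraries differ in more than *FLO11*, and its RNA goes against the labels. *FLO11* averaged 5.11 ± 0.33 (log2, SD, n = 3) in colonies of KV2668, labelled wild type, and 12.94 ± 0.17 in colonies of KV473, labelled flo11. It averaged 4.85 ± 0.26 in KV68, labelled wild type, and 13.06 ± 0.10 in KV63, labelled flo11 (SD, n = 3 each). Groups are therefore called by strain, and a positive strain difference means higher in the strain whose arrays carry the wild-type label but little *FLO11* RNA. KV2668 also carried the RNA of a-specific mating genes where KV473 carried that of alpha-specific genes. The averaged log2 value of 7 a-specific genes, less that of 4 alpha-specific genes, ranged from 2.96 to 3.29 across KV2668 and from −5.97 to −4.60 across KV473. Of the 462 tested probe sets on chromosome XII, 96.8% were higher in KV2668 colonies than in KV473 colonies, with a median difference of 0.81 on the log2 scale, against −0.04 over the other chromosomes. *FKS1* and *MID2* lie on that chromosome. In KV2668 against KV473, the near absence of *FLO11* RNA, the mating type and the chromosome XII levels cannot be told apart by design. KV68 solid replicate 3 correlated with its fellow replicates at 0.917 and 0.909 across probe sets, where the pairs of all other groups reached 0.993 or more, as did its replicates 1 and 2 with each other. Its a-specific minus alpha-specific mean was 0.36, against −6.18 and −6.37 on the other KV68 arrays and −5.85, −5.44 and −4.58 on the KV63 arrays. Differences with KV68 are therefore also given without KV68 solid replicate 3 where they shift.

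**Figure D1:**
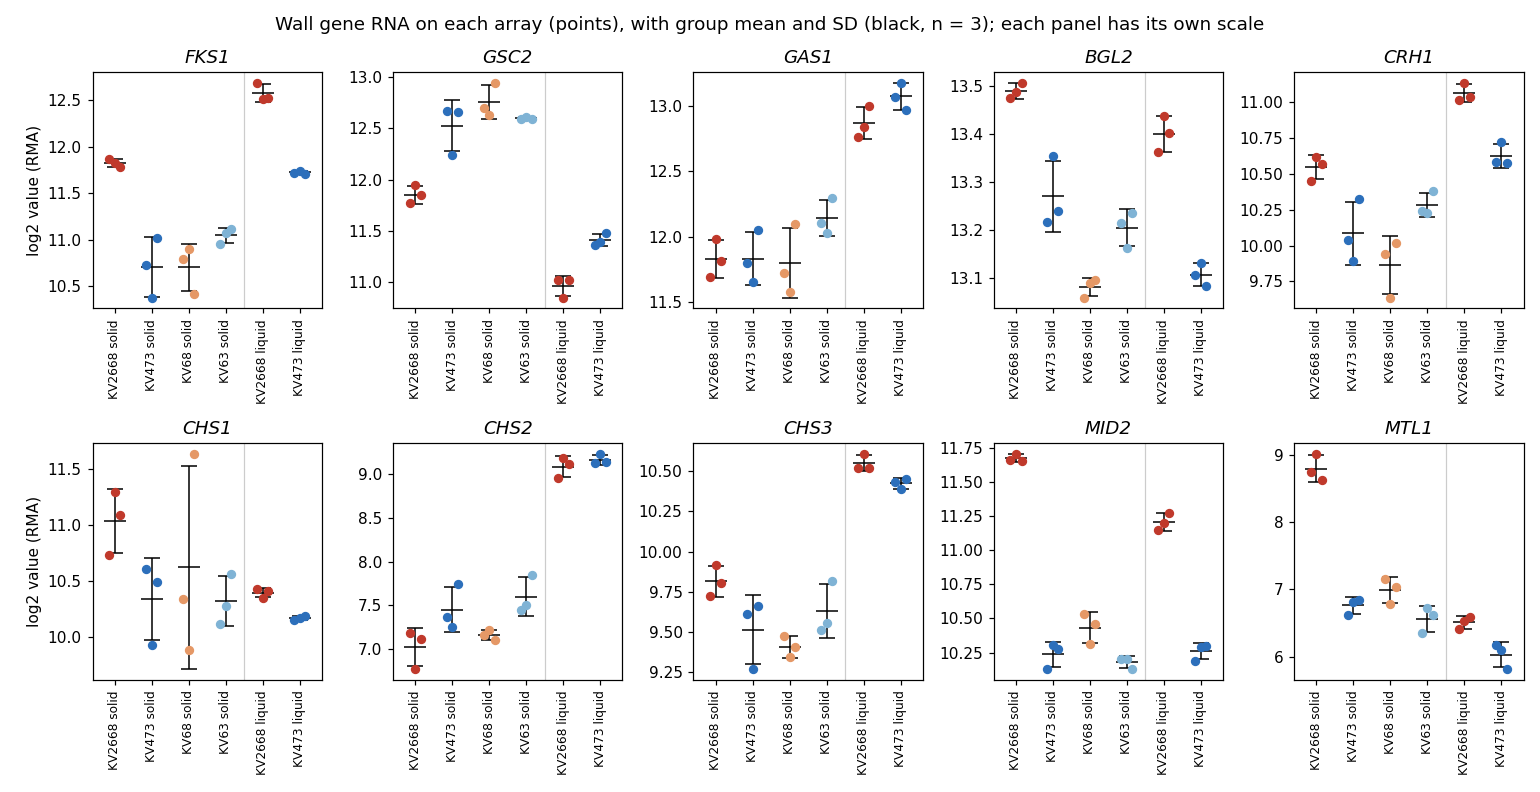
Log2 (RMA) values of the 10 wall genes on each of 18 arrays (points, coloured by strain), with the mean and SD of each strain and medium (black, n = 3). *MTL1* stands out in KV2668 colonies, at 8.63 to 9.01, and *CHS2* lies between 8.95 and 9.23 on all liquid arrays, above all colony arrays.

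KV2668 colonies held more RNA of both sensors and of the glucan synthase gene *FKS1* than KV473 colonies. *MTL1* rose 4.09-fold, *MID2* 2.70-fold and *FKS1* 2.18-fold, and none of the 10 genes fell beyond the threshold. A call needed both an adjusted p below 0.05 and a log2 difference of more than 1 in size, in a limma fit over 5424 probe sets. These 3 of 10 genes compare with 4.35% of all tested probe sets called higher and 1.79% called lower. On chromosome XII, where *FKS1* and *MID2* lie, 138 of the 462 tested probe sets were called higher, and with each chromosome centred on its median *MTL1* alone of the 10 genes was called. Of the 7 genes below the fold threshold, 4 were higher and 2 lower with an adjusted p under 0.05 (limma), and *GAS1* did not pass. Over all tested probe sets, 29.9% were higher and 30.2% lower at that adjusted p alone. The arrays of KV2668 and KV473 colonies did not overlap for 9 of the 10 genes, 7 higher and 2 lower, against 62.1% of all tested probe sets, 30.1% higher and 32% lower. The median difference of the 10 genes was 0.38, against −0.01 over all tested probe sets.

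*MTL1*, the gene of the second sensor, showed the widest range of all 10 genes, 2.76 on the log2 scale between its highest and lowest group mean. In KV2668 colonies its log2 values were 8.74, 9.01 and 8.63, against 6.62, 6.81 and 6.85 in KV473 colonies. In liquid medium they were 6.41, 6.53 and 6.60 in KV2668 and 6.17, 6.10 and 5.82 in KV473. KV2668 colonies thus stood above every other array, and in liquid medium the strains did not overlap either. The difference between KV2668 and KV473 was 2.03 (SE 0.11, adjusted p = 7.37e-09, limma) in colonies and 0.48 (SE 0.11, adjusted p = 0.00223, limma) in liquid medium. The strain difference was larger on solid medium by 1.55 (SE 0.16, adjusted p = 4.61e-06, limma interaction), where 4.22% of all tested probe sets were called in that direction, 2.93% in the other and 7.15% in either. *MTL1* was the lone gene of the 10 to pass both thresholds for this interaction. After KV2668 colonies, the order of its means was KV68, KV473 and KV63 colonies, then KV2668 and KV473 in liquid medium. Of these, neighbours overlapped in their arrays except for the final pair. With each chromosome centred, the difference in colonies was 2.07 (adjusted p = 9.52e-09, limma).

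*MID2*, the sensor gene on chromosome XII, was higher in KV2668 in both media. Its log2 values were 11.66, 11.70 and 11.65 in KV2668 colonies, against 10.13, 10.30 and 10.27 in KV473 colonies. In liquid medium they were 11.15, 11.20 and 11.27 in KV2668 and 10.19, 10.29 and 10.30 in KV473. The KV2668 arrays lay above the KV473 arrays throughout, and the colonies of KV2668 also above its liquid cultures. The difference between the strains was 1.44 (SE 0.06, adjusted p = 1.31e-09, limma) in colonies and 0.95 (SE 0.06, adjusted p = 2.32e-08, limma) in liquid medium, where it did not reach the fold threshold. The strain difference was larger in colonies by 0.49 (SE 0.09, adjusted p = 0.000497, limma interaction). In colonies *MID2* exceeded 93.3% of the tested probe sets of chromosome XII in its difference, and in liquid medium 60.6%. With each chromosome centred on its median, the differences were 0.64 (adjusted p = 2.93e-06, limma) in colonies and 0.20 (adjusted p = 0.0167, limma) in liquid medium, and the call in colonies was lost.

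*FKS1* and *GSC2*, which encode the alternative catalytic subunits of glucan synthase, had strain differences of opposite sign in both media. *FKS1* had log2 values of 11.87, 11.82 and 11.79 in KV2668 colonies, against 10.72, 10.38 and 11.01 in KV473 colonies. In liquid medium it had 12.69, 12.51 and 12.52 in KV2668, against 11.72, 11.74 and 11.71 in KV473. No KV2668 array of a medium overlapped with one of KV473. The difference was 1.12 (SE 0.12, adjusted p = 2.41e-06, limma) in colonies and 0.85 (SE 0.12, adjusted p = 2.73e-05, limma) in liquid medium. Without KV473 solid replicate 2, the lowest KV473 array, the difference in colonies was 0.96 and under the fold threshold. *FKS1* exceeded 79.7% of the chromosome XII probe sets in colonies and 47.6% in liquid medium. With each chromosome centred its differences were 0.33 (adjusted p = 0.022, limma) and 0.11 (adjusted p = 0.444, limma).

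*GSC2*, on chromosome VII, had log2 values of 11.77, 11.94 and 11.85 in KV2668 colonies, against 12.67, 12.24 and 12.66 in KV473 colonies. In liquid medium it had 11.02, 10.85 and 11.02 in KV2668, against 11.37, 11.39 and 11.48 in KV473. All KV2668 arrays of a medium lay below those of KV473. The difference was −0.67 (SE 0.10, adjusted p = 7.98e-05, limma) in colonies and −0.45 (SE 0.10, adjusted p = 0.00204, limma) in liquid medium, under the fold threshold in both. Over the 18 arrays *FKS1* and *GSC2* had a Pearson r of −0.91, a description across arrays that share strains and media. No other pair of the 10 genes had a lower r, but *GSC2* also had −0.91 with *CHS3* and −0.88 with *CRH1*.

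The remodelling genes differed less between these strains. *CRH1*, whose product links chitin to glucan, had log2 values of 10.45, 10.62 and 10.56 in KV2668 colonies, against 10.04, 9.89 and 10.32 in KV473 colonies. Its difference was 0.46 (SE 0.09, adjusted p = 0.000854, limma) in colonies and 0.44 (SE 0.09, adjusted p = 0.00141, limma) in liquid medium. *BGL2*, which encodes an abundant glucan-branching wall protein, differed by 0.22 (SE 0.05, adjusted p = 0.00341, limma) and 0.29 (SE 0.05, adjusted p = 0.000441, limma). For both genes the KV2668 arrays of a medium lay above those of KV473, at differences below the fold threshold. *GAS1*, the gene of the main glucan elongase, had a mean of 11.83 ± 0.15 in KV2668 colonies and 11.83 ± 0.20 in KV473 colonies (SD, n = 3 each). The 95% confidence interval of its difference ran from −0.23 to 0.22 in colonies and from −0.43 to 0.02 in liquid medium.

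Among the chitin synthase genes, no difference between KV2668 and KV473 reached the fold threshold. *CHS1* had log2 values of 10.73, 11.29 and 11.09 in KV2668 colonies, against 10.61, 9.93 and 10.50 in KV473 colonies, a difference of 0.69 (SE 0.15, adjusted p = 0.00164, limma). *CHS3* differed by 0.30 (SE 0.09, adjusted p = 0.0107, limma) and *CHS2* by −0.43 (SE 0.12, adjusted p = 0.00906, limma). The arrays of the strains did not overlap for any of these genes in colonies. In liquid medium none of the 3 passed, with differences of 0.23 for *CHS1*, −0.08 for *CHS2* and 0.13 for *CHS3*.

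In liquid medium 0 of the 10 genes passed both thresholds between KV2668 and KV473 (limma), where 4.5% of all tested probe sets were called higher and 3.78% lower. At an unadjusted p under 0.05 there were 6, against 3134 of the 5424 tested probe sets. At an adjusted p under 0.05 there were also 6. Of these, 5 had more RNA in KV2668 (*FKS1*, *BGL2*, *CRH1*, *MTL1* and *MID2*) and *GSC2* had less. Over all tested probe sets, 28.6% were higher and 24.3% lower at that adjusted p alone. The arrays of the strains did not overlap for 8 of the 10, 7 higher and 1 lower, against 65.4% of all tested probe sets, 35.4% higher and 30% lower. KV63 and KV68 have no liquid arrays here.

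**Figure D2:**
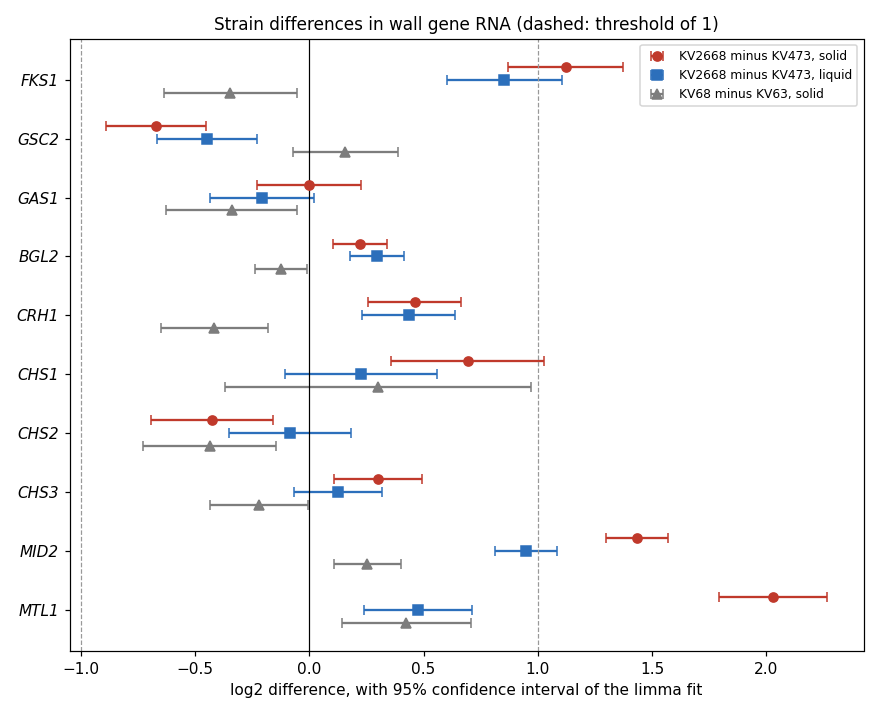
Log2 differences of the 10 wall genes with 95% confidence intervals (limma) between KV2668 and KV473 colonies (circles), between these strains in liquid medium (squares) and between KV68 and KV63 colonies (triangles). *MTL1*, *MID2* and *FKS1* lie beyond the threshold of 1 (dashed) in KV2668 against KV473 colonies, and no gene does in the other comparisons.

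KV68 and KV63 colonies, which show the same contrast in *FLO11* RNA, differed in none of the 10 genes beyond both thresholds (limma). At an unadjusted p under 0.05 there were 8, against 1470 of the 5424 tested probe sets. The arrays did not overlap for 8 genes, 3 higher and 5 lower in KV68, against 24.4% of all tested probe sets, 12.4% higher and 11.9% lower. Of all tested probe sets, 0.221% were called higher and 0.221% lower, or 24 in all, and this number was 51, 64 and 37 without KV68 solid replicates 1, 2 and 3 and 14 without KV63 solid replicate 3. *CRH1* was lower in KV68 by 0.42 (SE 0.11, adjusted p = 0.0283, limma) and *MID2* higher by 0.25 (SE 0.07, adjusted p = 0.0314, limma). At an adjusted p alone, 5.62% of all tested probe sets were higher and 4.98% lower, and without KV68 solid replicate 3 the share in either direction was 21%. *MID2* had log2 values of 10.53, 10.31 and 10.46 in KV68, against 10.20, 10.20 and 10.13 in KV63, so the arrays did not overlap. *MTL1* had 7.16, 6.78 and 7.03 in KV68, against 6.35, 6.73 and 6.62 in KV63, a difference of 0.43 (SE 0.13) with adjusted p = 0.0513 (limma). *FKS1*, *CRH1* and *BGL2*, higher in KV2668 than in KV473 colonies, had negative differences here, of −0.35 (adjusted p = 0.116, limma) for *FKS1*, which was −0.20 (adjusted p = 0.25, limma) without KV68 solid replicate 3, and −0.12 (adjusted p = 0.146, limma) for *BGL2*. The chromosome XII probe sets had a median difference of −0.0032 between KV68 and KV63. *CHS2* gave −0.44 (SE 0.14, adjusted p = 0.0513, limma), beside −0.43 in KV2668 against KV473. With the replicate number as a block the adjusted p of *CHS2* was 0.0491 (limma).

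KV68 solid replicate 3 decided the sign for *CHS1* in this pair. Its log2 value there was 11.63, above all other arrays of the gene, against 10.34 and 9.89 on the other KV68 arrays. With that array *CHS1* differed between KV68 and KV63 by 0.30 (SE 0.31), and without it by −0.20 (SE 0.19, adjusted p = 0.467, limma). Without it, *GAS1* was lower in KV68 by 0.49 (adjusted p = 0.00982, limma), against a difference of −0.34 (adjusted p = 0.116, limma) with it. *CRH1* then gave −0.49 and *MID2* 0.24 (adjusted p = 0.00685 and 0.0334, limma). *GSC2* gave 0.06 (adjusted p = 0.703, limma) without that array and 0.16 (adjusted p = 0.367, limma) with it.

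**Figure D3:**
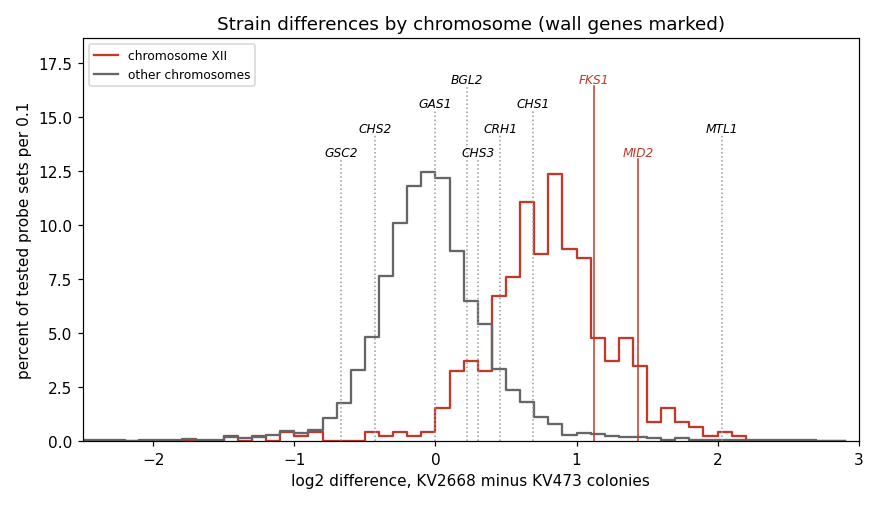
Share of tested probe sets in steps of 0.1 of the log2 difference between KV2668 and KV473 colonies, for chromosome XII (red) and the other chromosomes (grey), with the 10 wall genes marked (red lines, genes on chromosome XII). *FKS1* and *MID2* lie at 1.12 and 1.44 in the upper part of the chromosome XII distribution, whose median is 0.81, and *MTL1*, on chromosome VII, lies at 2.03.

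KV68 and KV2668 colonies share the wild-type label and the near absence of *FLO11* RNA, and they differed most in the same 3 genes. *MTL1* was lower in KV68 by 1.80 (SE 0.13, adjusted p = 8.81e-08, limma), *MID2* by 1.24 (SE 0.07, adjusted p = 1.36e-08, limma) and *FKS1* by 1.13 (SE 0.14, adjusted p = 1.17e-05, limma). Among all tested probe sets, 3.71% were called lower, 1.51% higher and 5.22% in either direction. At an adjusted p alone 6 of the 10 genes were lower and 1 higher, against 21.4% and 21.2% of all tested probe sets, and the arrays did not overlap for 7, against 43%. This comparison shares the KV2668 colonies with that of KV2668 and KV473, so the values are not independent. *GSC2* was higher in KV68 by 0.90 (SE 0.11, adjusted p = 1.15e-05, limma), with log2 values of 12.70, 12.62 and 12.94 in KV68 against 11.77, 11.94 and 11.85 in KV2668. Without KV68 solid replicate 3 the difference of *FKS1* was −0.98 and under the fold threshold. In that fit 2 of the 10 genes were called, against 7.17% of all tested probe sets. *CHS1* gave −0.92 (adjusted p = 0.000607, limma) without that array and −0.41 (adjusted p = 0.313, limma) with it. Without that array 7 genes were lower and 1 higher at an adjusted p alone, against 56.3% of all tested probe sets in either direction. With each chromosome centred the difference of *FKS1* was −0.33 (adjusted p = 0.0675, limma) and that of *MID2* was −0.44, while *MTL1* gave −1.84. Chromosome XII had a median difference of −0.80 here. These strains also differed in mating type RNA, with 4 of 4 alpha-specific genes called higher in KV68 and 6 of 7 a-specific genes called lower. Mating type and chromosome XII levels cannot be told apart in this comparison. KV63 and KV473 colonies, which share the flo11 label, differed in 0 of the 10 genes (limma, 2 at an unadjusted p under 0.05), with 0% of all tested probe sets called. Over all tested probe sets, 80 of 5424 had an unadjusted p under 0.05 (limma). The largest absolute difference among the 10 was 0.34, for *FKS1*.

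Colonies and liquid cultures of a strain differed in 3 of the 10 genes in KV2668 and in 4 in KV473 beyond both thresholds. The 10 differences had a median of 0.74 in size in KV2668 and 0.82 in KV473, against 0.48 and 0.49 over all tested probe sets. In KV2668 colonies against KV2668 liquid cultures, *MTL1* rose and *CHS2* and *GAS1* fell. In KV473 colonies against KV473 liquid cultures, *GSC2* rose and *CHS2*, *GAS1* and *FKS1* fell. Of all tested probe sets, 10.7% were called higher and 6.95% lower in KV2668 colonies, and 11.2% higher and 6.67% lower in KV473 colonies. At an adjusted p under 0.05 alone, 4 genes were higher and 5 lower in KV2668 colonies, and 3 higher and 5 lower in KV473 colonies (limma). These shares compare with 34.4% higher and 45.9% lower of all tested probe sets in KV2668 colonies, and with 32% and 49.2% in KV473 colonies. Colony and liquid arrays did not overlap for 10 genes in KV2668, 5 higher and 5 lower, against 82.2% of all tested probe sets, 34.9% higher and 47.3% lower. In KV473 they did not overlap for 8, 3 higher and 5 lower, against 82.5%, 32.3% higher and 50.1% lower.

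*CHS2*, which builds the chitin of the primary septum during cytokinesis, had the largest decrease. In KV2668 its log2 values were 7.19, 6.78 and 7.11 in colonies, against 8.95, 9.18 and 9.11 in liquid medium. In KV473 they were 7.37, 7.25 and 7.74 in colonies, against 9.12, 9.23 and 9.13 in liquid medium. Colonies and liquid cultures were clearly apart in both strains. *CHS2* fell by 2.05 (SE 0.12, adjusted p = 3.43e-09, limma) in KV2668 colonies and by 1.71 (SE 0.12, adjusted p = 2.1e-08, limma) in KV473 colonies. The KV68 and KV63 colonies lay in the same low range, at 7.16, 7.23 and 7.10 in KV68 and 7.44, 7.50 and 7.85 in KV63. *CHS3*, the gene of the synthase that makes most of the wall's chitin, gave −0.73 (SE 0.09, adjusted p = 4.23e-06, limma) in KV2668 and −0.91 (SE 0.09, adjusted p = 4.91e-07, limma) in KV473. *CHS1* had a difference of 0.64 (SE 0.15, adjusted p = 0.00175, limma) in KV2668 and of 0.17 (adjusted p = 0.316, limma) in KV473. The media differences of *CHS1* in the strains differed by 0.47 (SE 0.22, adjusted p = 0.0894, limma interaction).

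*GAS1* fell in colonies of both strains. Its log2 values were 11.69, 11.99 and 11.82 in KV2668 colonies, against 12.76, 12.84 and 13.00 in KV2668 liquid cultures. In KV473 they were 11.80, 11.65 and 12.05 in colonies, against 13.07, 13.18 and 12.97 in liquid medium. Each liquid array lay above each colony array of the same strain. The decrease was 1.03 (SE 0.11, adjusted p = 6.17e-07, limma) in KV2668 and 1.24 (SE 0.11, adjusted p = 1.03e-07, limma) in KV473. In KV2668 it came to 0.96 without solid replicate 1 and to 0.97 without liquid replicate 3, both under the fold threshold. *CRH1* gave −0.52 in KV2668 and −0.54 in KV473 (SE 0.09 each, adjusted p = 0.000178 and 0.000112, limma). *BGL2* differed least, with 0.09 (95% confidence interval −0.03 to 0.21) in KV2668 and 0.16 (0.05 to 0.28) in KV473.

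The glucan synthase genes again had differences of opposite sign. *FKS1* gave −0.75 (SE 0.12, adjusted p = 4.25e-05, limma) in KV2668 colonies and fell by 1.02 (SE 0.12, adjusted p = 2.1e-06, limma) in KV473 colonies. *GSC2* gave 0.89 (SE 0.10, adjusted p = 2.11e-06, limma) in KV2668 colonies and rose by 1.11 (SE 0.10, adjusted p = 2.22e-07, limma) in KV473 colonies. For each gene, colonies and liquid cultures of a strain did not overlap. *FKS1* passed the fold threshold in KV473 by little, and without KV473 solid replicate 2 its difference was −0.85. The call was also lost with each chromosome centred (−0.85) and after quantile normalization (−0.97). The strain by medium interaction of *FKS1* was 0.27 (95% confidence interval −0.09 to 0.62) and that of *GSC2* −0.22 (−0.53 to 0.09). Neither passed (adjusted p = 0.191 and 0.213, limma). These data therefore do not show that the difference between colonies and liquid cultures depends on the strain for either gene.

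**Figure D4:**
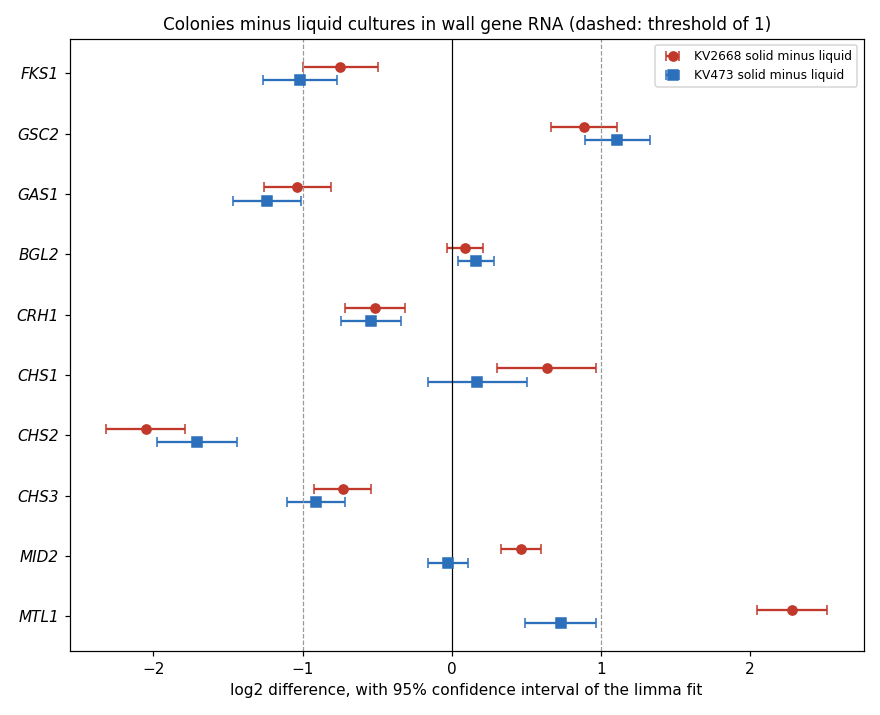
Log2 differences of the 10 wall genes between colonies and liquid cultures, with 95% confidence intervals (limma), in KV2668 (circles) and KV473 (squares). *CHS2* lies lowest in both strains, at −2.05 and −1.71, and *MTL1* differs most between the strains, at 2.28 in KV2668 and 0.73 in KV473.

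The differences of the sensor genes between colonies and liquid cultures were unequal in the strains. *MTL1* was higher in KV2668 colonies than in KV2668 liquid cultures by 2.28 (SE 0.11, adjusted p = 3.83e-10, limma) and in KV473 by 0.73 (SE 0.11, adjusted p = 2.97e-05, limma). *MID2* had a difference of 0.47 (SE 0.06, adjusted p = 1.1e-05, limma) in KV2668 and of −0.02 (95% confidence interval −0.16 to 0.11) in KV473. These are the same interactions as above, which 24.8% of all tested probe sets passed in the positive direction at an adjusted p alone and 27% in the negative direction. The interaction of *MTL1* was 1.52 and that of *MID2* 0.44 with each chromosome centred (adjusted p = 5.4e-06 and 0.00108, limma).

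Across the 18 arrays, the probe sets most like *MTL1* belonged to *RLM1*, *LDS2* and *MGA1*, with Pearson r of 0.96, 0.96 and 0.94. *RLM1* encodes the transcription factor at the end of the cell wall integrity pathway, *LDS2* a protein of spore wall formation, and *MGA1* a protein similar to heat shock factors. *RLM1* averaged 10.27 ± 0.14 in KV2668 colonies and 9.27 ± 0.02 in KV473 colonies, and 9.15 ± 0.09 in KV2668 and 8.65 ± 0.13 in KV473 in liquid medium (log2, SD, n = 3 each). *RLM1* was picked for its likeness to *MTL1* on these arrays, and like *MTL1* it was highest in KV2668 colonies and lowest in KV473 liquid cultures. The probe sets most like *CHS2* were those of *GIN4*, *LTE1* and *SSO2*, each with an r of 0.99. *GIN4* encodes a kinase of septin assembly at the bud neck, *LTE1* a regulator of exit from mitosis and *SSO2* a plasma membrane protein of secretory vesicle fusion. *GIN4* averaged 9.36 ± 0.13 in KV473 colonies and 10.63 ± 0.08 in KV473 liquid cultures (log2, SD, n = 3 each). These arrays share strains and media, so the r values describe shared group levels. Among the 10 genes themselves, *CHS2* and *GAS1* were closest, with an r of 0.95, followed by *FKS1* and *CRH1* with 0.93.

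The wider wall pathway was read from 7 lists of genes, which hold 69 tested genes beside the 10. In KV2668 against KV473 colonies 3 of the 69 were called higher and 0 lower, or 4.35%, against 6.14% of all tested probe sets in either direction. They were *CTS1*, *DSE2* and *RLM1*. In liquid medium 11 were higher and 0 lower, or 15.9%, against 8.28% of all tested probe sets, and 5 of the 11 lie on chromosome XII. KV68 against KV63 gave 0 of 69 (limma). At an unadjusted p under 0.05 there were 17, against 1470 of the 5424 tested probe sets. In KV2668 colonies against its liquid cultures 6 were higher and 10 lower, or 23.2%, against 17.7% of all tested probe sets. In KV473 it was 9 higher and 7 lower, or 23.2%, against 17.9%. The median difference of the 69 between the strains was 0.16 in colonies and 0.21 in liquid medium, against −0.01 and 0.02 over all tested probe sets.

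Of 4 other sensor genes of the same pathway, those of the Wsc family, 0 were called between KV2668 and KV473 in either medium (limma). At an unadjusted p under 0.05 there were 1 in colonies and 2 in liquid medium, against 3460 and 3134 of the 5424 tested probe sets. *WSC4* gave 0.15 in colonies and 0.90 in liquid medium. In colonies against liquid cultures *WSC2* fell by 1.11 in both KV2668 and KV473, and *WSC4* was higher by 1.55 (adjusted p = 1.04e-07, limma) in KV473 and gave 0.79 in KV2668. Of 19 signalling genes of the pathway, *RLM1* alone was called between KV2668 and KV473 colonies, at 1.0017 (SE 0.08, adjusted p = 2.45e-07, limma). It passed the fold threshold by very little. At an adjusted p under 0.05 alone (limma) 12 of the 19 were higher and 4 lower, against 29.9% and 30.2% of all tested probe sets. The gene of the pathway's MAP kinase, *SLT2*, had 0.86 (adjusted p = 3.84e-06, limma) and that of the related pseudokinase, *KDX1*, 0.90 (adjusted p = 1.51e-06, limma), below the fold threshold. *BCK1*, also on this list, was lower in KV2668 colonies, at 8.73, 8.63 and 8.70, against 9.10, 9.30 and 9.05 in KV473 colonies (log2). *PKC1* had 9.36, 9.49 and 9.41 in KV2668 colonies, against 9.35, 9.47 and 9.49 in KV473 colonies. In liquid medium *KDX1* was higher by 1.09 and *ROM2*, on chromosome XII, by 1.05. *ROM2* encodes an exchange factor that activates Rho1. The phosphatase gene *SDP1* rose by 1.81 and the exchange factor gene *ROM1* by 1.24 in KV473 colonies against liquid cultures, and *ROM1* by 1.08 in KV2668.

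Of 9 other genes known to depend on Rlm1, 0 were called between KV2668 and KV473 colonies (limma). At an unadjusted p under 0.05 there were 6, against 3460 of the 5424 tested probe sets. In liquid medium 2 of the 9 were called higher in KV2668 and 0 lower, against 4.5% and 3.78% of all tested probe sets. For the strain by medium interaction 0 were called higher and 1 lower, against 4.22% and 2.93%. *PIR3* encodes a wall protein bound to glucan. Its log2 values were 9.44, 9.39 and 9.47 in KV2668 liquid cultures, against 7.88, 7.32 and 7.44 in KV473. *PIR3* also had the largest difference between colonies and liquid cultures of any wall gene on the lists. It rose by 5.59 (SE 0.11, adjusted p = 5.65e-14, limma) in KV473 colonies and by 3.84 (SE 0.11, adjusted p = 2.47e-12, limma) in KV2668 colonies. *PST1*, another wall protein gene, rose by 1.85 in KV473 and by 1.60 in KV2668, while *CWP1*, the gene of a mannoprotein of the birth scar, fell by 1.60 and by 1.74.

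In liquid medium 7 of 16 other remodelling genes were called higher in KV2668 than in KV473 and 0 lower, against 4.5% and 3.78% of all tested probe sets. At an adjusted p under 0.05 alone (limma) 9 were higher and 1 lower, against 28.6% and 24.3%. *CRR1*, which encodes a Crh1 relative of the spore wall, was higher by 2.28, the gene of a probable glucanase, *DSE2*, by 2.27, *SUN4* by 1.72 and *GAS2*, a Gas1 relative of spore formation, by 1.52. Of these named genes, *CRR1* and *GAS2* lie on chromosome XII, where 158 of the 462 tested probe sets were called higher in this comparison. In colonies *DSE2* alone was called, at 1.58 (SE 0.12, adjusted p = 1.24e-07, limma). In colonies against liquid cultures 5 were called lower in each strain, against 6.95% of all tested probe sets in KV2668 and 6.67% in KV473. *UTR2*, a Crh1 relative that acts at the bud neck, fell by 1.86 in KV2668 and by 2.45 in KV473, and *GAS3* by 1.40 and by 1.83. *GAS2* and *CRR1* rose in KV473 colonies, by 1.42 and 2.55.

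Among 13 other chitin genes, the chitinase gene *CTS1*, needed for mother and daughter cells to part, differed most, and it lies on chromosome XII. It was higher in KV2668 than in KV473 by 1.11 (SE 0.10, adjusted p = 4.2e-07, limma) in colonies and by 3.00 (SE 0.10, adjusted p = 3.38e-11, limma) in liquid medium. It rose in KV473 colonies against liquid cultures by 2.35. *GFA1* and *QRI1*, which encode enzymes that make the precursor of chitin, fell by 1.15 and 1.16 in KV2668 colonies. Among the 8 genes of the other glucan, with 1,6 bonds, only *SKN1* was called in any of the comparisons between these strains or media, and it rose by 1.04 in KV2668 colonies and by 1.39 in KV473 colonies against liquid cultures.

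**Figure D5:**
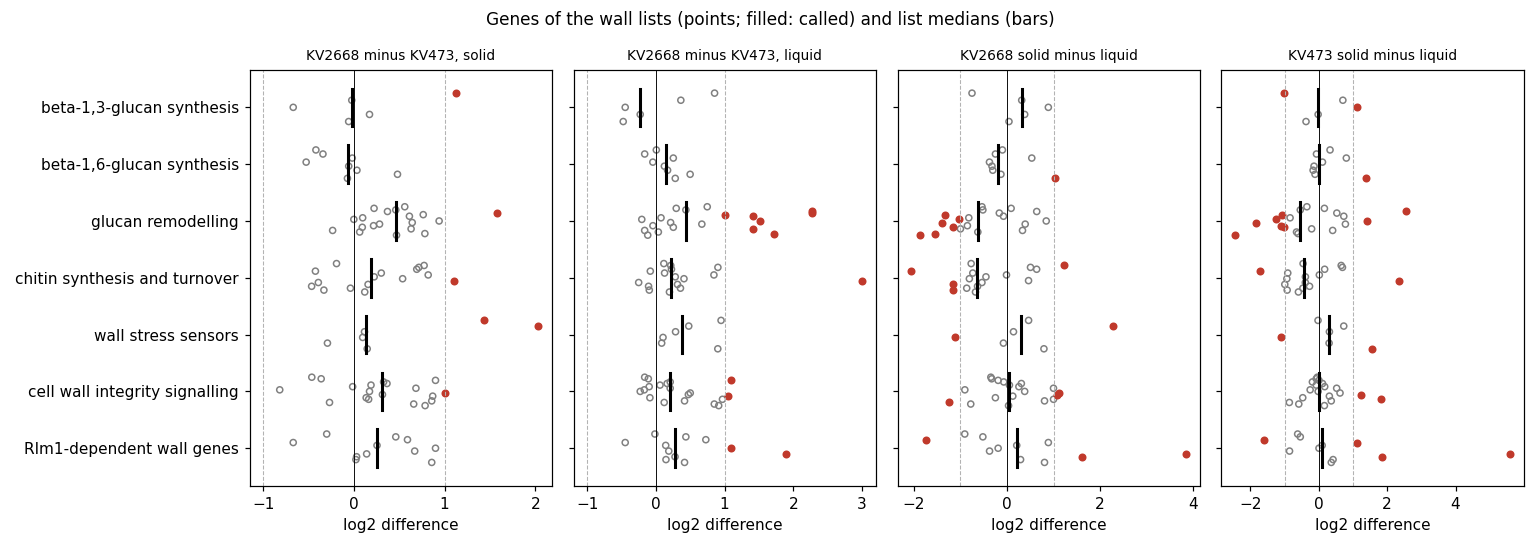
Log2 differences of the genes in the 7 wall lists (points, the 10 wall genes included, filled where called) and the list medians (bars) in 4 comparisons. The highest point, at 5.59 in KV473 colonies against liquid cultures, is *PIR3*, and genes can stand in more than 1 list.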

How the data were processed

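The platform was the Affymetrix Yeast Genome 2.0 array, with 18 arrays in all. The authors deposited log2 values from RMA, which corrects the background, normalizes arrays against each other and summarizes probe sets, whose version the sources used here do not give. Nothing was renormalized for the main values. Genes of probe sets came from the platform annotation, updated through a RefSeq gene table, which also gave chromosomes. Of 7686 probe sets, 6145 carry 1 symbol, 1 several and 1540 none. Background was set per array at the 95th percentile of 676 *S. pombe* probe sets (4.34 to 4.56), and tests covered the 5424 of 5469 *S. cerevisiae* probe sets that exceeded it on 3 or more arrays. All columns were assigned from their labels. No array repeated another, and arrays have no read depth, so their number limits the precision.

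limma 3.58.1 (lmFit, then eBayes; R 4.3.3) gave the differences, with Benjamini-Hochberg adjustment over all tested probe sets, and the thresholds follow the paper's methods. Comparisons of KV2668 and KV473 used their 12 arrays in 4 groups (8 residual degrees of freedom). Those with KV63 or KV68 used 18 arrays in 6 groups (12 residual degrees of freedom). The procedure was tested on simulated data. No label says that a replicate number pairs arrays, and the main fits took none as pairs. KV68 and KV63 colonies of the same number had correlations of their deviations from the group means of 0.402, 0.270 and 0.520. These values are not independent and include KV68 solid replicate 3, so they cannot decide on a pairing. For KV2668 and KV473 colonies these correlations were 0.084, 0.180 and 0.205. A replicate block over all arrays of each fit changed no call among the 10 genes. The 10 genes and the lists were chosen with earlier results of these data known. Of 92 listed genes, 91 have a named probe set. A further list is not reported here. Genes named are the 10, *FLO11*, up to 4 of the called genes with the largest differences per list, and the 3 probe sets most correlated with each of the 2 most variable of the 10. *SLT2*, *KDX1* and some uncalled list genes were named after their values were seen. Alternatives were another set of arrays, pooling by label, the replicate block, other filters, a floor at background, quantile normalization, centred chromosomes, another variance prior, no minimum difference, and leaving out each array.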

Additional observations from a re-analysis of the deposited data

Results flagged for a closer look

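The strain difference between KV2668 and KV473 differed between colonies and liquid cultures for 2 of the 10 genes by the interaction test of limma. For *MTL1* it was larger in colonies by 1.55 (SE 0.16, adjusted p = 4.61e-06), and for *MID2* by 0.49 (SE 0.09, adjusted p = 0.000497). In these tests 24.8% of all tested probe sets had a positive interaction and 27% a negative one at an adjusted p under 0.05.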

How the results depend on the processing

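Of the values recomputed for the 10 genes, 1808 kept their direction and side of the threshold, 28 changed sign, 14 lost a call and 30 gained one, nearly all of these by dropping the minimum difference. With no minimum difference, the 10 genes gave 7 higher and 2 lower between KV2668 and KV473 colonies, 5 and 1 between their liquid cultures, 1 and 1 between KV68 and KV63, and 1 and 6 between KV68 and KV2668. Colonies against liquid cultures then gave 4 and 5 in KV2668 and 3 and 5 in KV473, and the interaction 2 higher. With each chromosome centred, 1 gene, *MTL1*, was called higher in KV2668 than in KV473 colonies, 1 lower in KV68 than in KV2668, and 1 lower in KV2668 colonies than in liquid medium, and *FKS1* was no longer called in the KV473 media. Centring gave differences of 0.047 for *GAS1* (KV2668 against KV473 colonies), 0.0056 for *CHS2* (the same strains in liquid medium), 0.14 for *MID2* (KV473 media) and −0.0075 for *CRH1* (interaction), each of opposite sign to before. Quantile normalization turned *MID2* in the KV473 media to 0.0093, *CRH1* in the interaction to −0.053 and *GAS1* in KV68 against KV2668 to 0.040.

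Pooling colonies by label called 1 gene higher, *MTL1*, where KV2668 against KV473 had 3 and KV68 against KV63 had 0, and called 64 tested probe sets against 333 and 24. The pooled differences had the opposite sign to KV68 against KV63 for *FKS1* (0.39), *GSC2* (−0.26), *CHS3* (0.040), *BGL2* (0.049) and *CRH1* (0.023). The cause of these shifts was not tested. Leaving out 1 array at a time gave 2 to 3 genes higher in KV2668 than in KV473 colonies and 1 to 2 lower in KV2668 colonies than in liquid medium. It gave 2 to 3 lower both in KV473 colonies against liquid medium and in KV68 against KV2668. Signs changed for *GAS1* between KV2668 and KV473 colonies (−0.093 to 0.11), *CHS1* between KV68 and KV63 (−0.20 to 0.67), *MID2* in the KV473 media (−0.057 to 0.030), *CRH1* in the interaction (−0.070 to 0.14) and *GAS1* between KV68 and KV2668 (−0.18 to 0.081). Between KV63 and KV473 they changed for *GSC2* (−0.069 to 0.15), *CHS1* (−0.23 to 0.11) and *CHS3* (−0.0094 to 0.19). The fit with the replicate block called the same numbers of the 10 genes in all comparisons, such as 3 higher and 0 lower between KV2668 and KV473 colonies. With 3 arrays a group, small differences such as these cannot be told from 0.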
